A study of Mus musculus with 38 samples.

Results

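The collagen chain genes of the mouse thyroid were described here in a transgenic model of papillary thyroid carcinoma (PTC). They were taken as all genes whose symbol in the array annotation has the form Col, a type number, a and a chain number, with 1 probe set per gene, and 44 such genes were found among the 19938 genes that the array names. Of these, 11 were fibrillar collagens, 9 belonged to basement membranes and 24 were of other types. Thyroid RNA came from 38 FVB/N mice and each sample was hybridised to its own Mouse Gene 1.0 ST array, with a part of each gland, holding fragments of both lobes, used for RNA and the rest for histology. The transgene was human *BRAF* cDNA with the V600E mutation under the bovine thyroglobulin promoter, which is active in follicular cells, and the mice came from several founder lines that the labels do not tell apart.

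The groups were defined by lesion and by *BRAF*V600E RNA. There were 10 PTCs (8 females and 2 males, 6 to 21 months old, median 11) and 10 borderline lesions, BL (8 females and 2 males, 4 to 21 months, median 10.5), all *BRAF*(+). Benign hyperplastic lesions, BHL, came from 4 *BRAF*(+) mice (3 females and 1 male, 4 to 11 months, median 10.5) and 4 *BRAF*(-) mice (3 females and 1 male, 6 to 24 months, median 11.5). Asymptomatic thyroids, AT, came from 5 *BRAF*(+) mice (4 females and 1 male, 7 to 11 months, median 10) and 5 *BRAF*(-) mice (3 females and 2 males, 4 to 12 months, median 11). *BRAF*(-) mice were genotyped as non-transgenic, except for a single BHL mouse that was genotyped as transgenic but had no transgene RNA. Ages are those of the labels, and they differ in part from the age classes in the study's description of the same mice. No group carried a wild-type *BRAF* transgene as a control. Founder line was not in the labels and so was not a covariate. In the study's description, all *BRAF*(+) BHL mice came from the same line and the *BRAF*(-) BHL mice from several. The other groups mixed lines in unequal shares, and the lines differed in the level of the mutant protein. The part of line in the differences was not tested.

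Collagens are secreted proteins whose chains wind around each other into a helix. Fibrillar collagens, with type I as the main one of connective tissue, assemble into the fibrils of the stroma and capsule. Type IV collagens form the sheet of the basement membrane on which thyroid follicles and capillaries rest. FACIT collagens, such as types IX, XII and XIV, do not form fibrils by themselves but sit on fibril surfaces, and type VI collagen forms beaded filaments near cells. Fibroblasts make most interstitial collagen, whereas basement membrane chains are also made by epithelium and endothelium.

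Upstream sequences are shown for *Col9a1*, *Col8a1* and *Col4a6*, which passed in comparisons described below, and for *Col6a1*, which passed in none but holds the only AP-1 match. Each is the 250 bases before a transcription start in RefSeq (GRCm38.p6), written on the strand of the gene, with capitals for a motif match on either strand. The motif of AP-1, a factor downstream of MAPK signalling, was searched as TGANTCA. For the GC box that Sp1 recognises, the letters searched were GGGCGG. The ETS family, which includes other MAPK-regulated factors, was searched only as CCGGAA, so forms of its site with other letters were not counted. The TATA box, which positions the start of transcription, was searched as TATAAA. *Col9a1* has a pair of listed starts, at chr1:24177360-24177609 and chr1:24194953-24195202 (both plus strand). *Col8a1* lies at chr16:57754738-57754987 (minus strand), *Col4a6* at chrX:141474077-141474326 (minus strand) and *Col6a1* at chr10:76726045-76726294 (minus strand).
Col9a1, upstream start: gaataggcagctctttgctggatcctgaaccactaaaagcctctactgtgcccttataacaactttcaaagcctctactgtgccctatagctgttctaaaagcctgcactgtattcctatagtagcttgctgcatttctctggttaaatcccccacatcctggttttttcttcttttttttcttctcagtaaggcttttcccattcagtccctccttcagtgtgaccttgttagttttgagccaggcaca
Col9a1, downstream start: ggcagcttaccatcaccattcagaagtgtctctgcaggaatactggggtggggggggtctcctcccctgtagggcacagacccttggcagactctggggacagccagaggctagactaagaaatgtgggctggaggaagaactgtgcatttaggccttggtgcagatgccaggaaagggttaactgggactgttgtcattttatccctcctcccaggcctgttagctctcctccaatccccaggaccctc
Col8a1: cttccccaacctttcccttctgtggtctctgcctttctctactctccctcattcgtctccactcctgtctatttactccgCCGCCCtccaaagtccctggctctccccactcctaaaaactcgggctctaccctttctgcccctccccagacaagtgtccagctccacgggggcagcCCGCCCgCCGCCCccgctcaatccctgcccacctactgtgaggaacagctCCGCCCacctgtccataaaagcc
Col4a6: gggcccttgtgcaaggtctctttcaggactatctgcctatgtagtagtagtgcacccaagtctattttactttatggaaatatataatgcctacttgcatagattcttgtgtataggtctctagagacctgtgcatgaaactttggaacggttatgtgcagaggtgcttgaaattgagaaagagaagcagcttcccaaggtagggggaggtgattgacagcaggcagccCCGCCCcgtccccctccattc
Col6a1: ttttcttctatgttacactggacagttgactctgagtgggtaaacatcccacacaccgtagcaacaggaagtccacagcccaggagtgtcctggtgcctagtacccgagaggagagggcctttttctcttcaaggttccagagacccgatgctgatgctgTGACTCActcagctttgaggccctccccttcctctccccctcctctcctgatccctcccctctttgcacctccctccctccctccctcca
Neither *Col9a1* window held any of the 4 motifs as searched. The *Col8a1* window held 4 Sp1 matches, that of *Col4a6* held 1 Sp1 match close to the start, and that of *Col6a1* held the only AP-1 match among the members, 90 bases before the start. Upstream windows were listed for 35 of the 44 genes (38 windows). An AP-1 match was found in 2.632% of them, against 6.749% of 32851 windows of all genes, and an Sp1 match in 57.89% against 32.74%. A TATA match was found in 13.16% against 12.37%. The letters CCGGAA were found in 0 against 12.03%, which does not speak to other ETS sites. In longer windows of 300 bases, which also reach past the start, those of *Col4a1* and *Col4a2*, which are transcribed away from each other, overlapped by 78 bases, and those of *Col4a5* and *Col4a6* lay 842 bases apart. A match to these letters is a description and not a bound site.

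Values were log2 signals, in which 1 unit is a doubling, and ran between 2.04 and 14.2 over 35556 probe sets. Array medians lay between 6.00 and 6.15 and any pair of arrays correlated at 0.944 to 0.991. Signals of different probe sets cannot be set against each other, so levels were compared between mice for each gene. Of the 44 genes, 33 had a mean signal above 6.10, the median of all probe sets. *Braf*, whose mouse probe set may also detect the human cDNA, averaged 9.62 ± 0.33 in *BRAF*(+) and 9.12 ± 0.21 in *BRAF*(-) non-malignant thyroids (SD, n = 9 each). Thyroid tissue was pooled from all its cells, so that more cells of a type and more RNA per cell cannot be told apart. The p-values of the group comparisons set a difference between groups against the spread between mice, estimated jointly over all groups of a fit.

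Higher and lower genes were found among the collagens. *Col9a1* (type IX, FACIT) was higher in PTC and in BL, both against *BRAF*(-) AT, and in *BRAF*(+) BHL against *BRAF*(-) BHL. *Col5a2* (type V, fibrillar), *Col12a1* (type XII, FACIT) and *Col4a6* (type IV) were higher in PTC and in *BRAF*(+) BHL against the same groups. PTC and BL had no *BRAF*(-) group of their own, so their comparisons with *BRAF*(-) AT join lesion and *BRAF* status. Another set, among them *Col2a1*, *Col13a1*, *Col24a1* and *Col26a1*, was lower in PTC by a smaller amount. The study's filter against probe sets that vary little between mice kept 8 of the 44 collagen genes. None of the genes called lower was among them, so the filter left their lower calls untested. *BRAF*(+) AT could not be distinguished from *BRAF*(-) AT for any collagen gene.

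**Figure D1:**
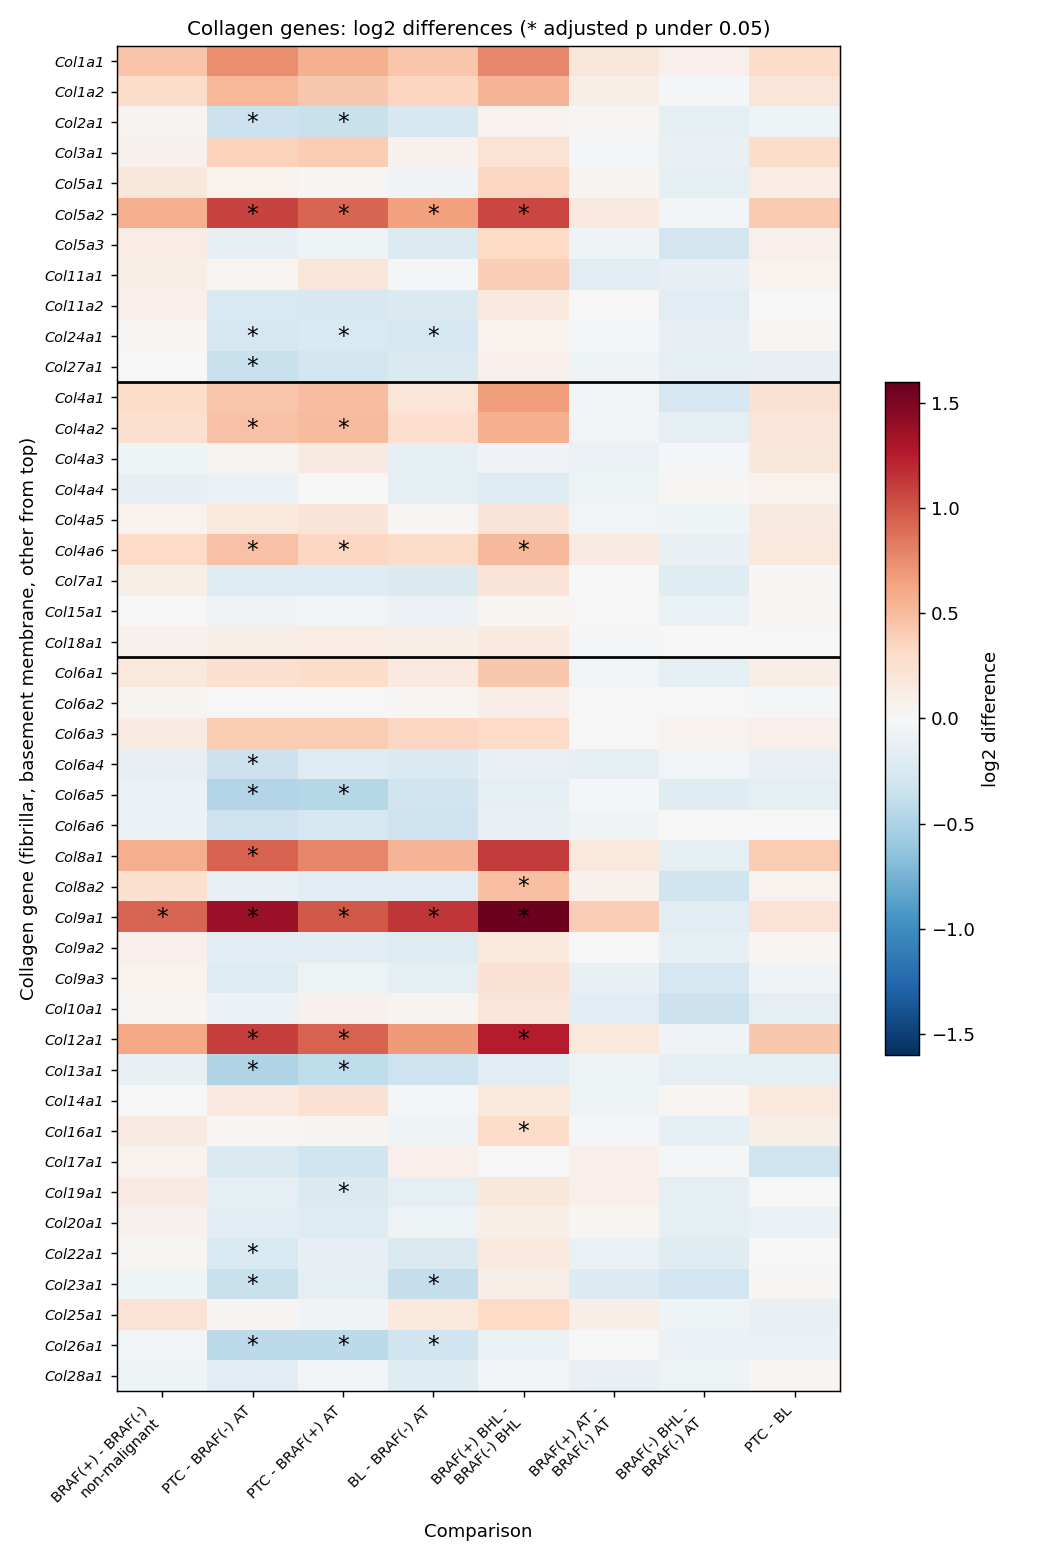
Log2 differences of the 44 collagen genes (rows, fibrillar, basement membrane and other types from the top) in 8 comparisons (columns), with red for higher and blue for lower in the group named first and an asterisk for an adjusted p under 0.05. The row of *Col9a1* is the darkest, with 1.38 in PTC against *BRAF*(-) AT, and the column of *BRAF*(+) AT against *BRAF*(-) AT holds no asterisk.

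The number of genes that passed (limma, Benjamini-Hochberg adjusted p under 0.05 over all probe sets) differed between comparisons. In *BRAF*(+) against *BRAF*(-) non-malignant thyroids, AT and BHL together, 1 of 44 collagen genes was higher and 0 were lower, against 4.1% of all probe sets called (2.19% higher and 1.91% lower). Without adjustment 8 were at p under 0.05, all higher. In PTC against *BRAF*(-) AT, 6 were higher and 9 lower (background 18.8%, with 9.8% higher and 9.01% lower). In PTC against *BRAF*(+) AT, 5 were higher and 6 lower (background 14.9%, with 8.49% higher and 6.44% lower). In BL against *BRAF*(-) AT, 2 were higher and 3 lower (background 11.5%, with 6.05% higher and 5.41% lower), a share close to the background. In *BRAF*(+) BHL against *BRAF*(-) BHL, 6 were higher and 0 lower (background 6.62%, with 2.98% higher and 3.64% lower). No collagen gene passed in *BRAF*(+) AT against *BRAF*(-) AT (background 0.256%, with 0.222% higher and 0.0337% lower; 0 at an unadjusted p under 0.05), in *BRAF*(-) BHL against *BRAF*(-) AT (background 0%; 2 unadjusted) or in PTC against BL (background 0%; 3 unadjusted). Several of these comparisons share their *BRAF*(-) AT or PTC mice. The median difference over the 44 genes was 0.07 in the non-malignant comparison (0.02 over all probe sets), -0.07 in PTC against *BRAF*(-) AT (-0.02) and 0.19 in *BRAF*(+) BHL against *BRAF*(-) BHL (0.03).

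Single mice moved some of these counts. In PTC against *BRAF*(-) AT the count of 15 genes became 9 without *BRAF*(-) AT mouse M_956, and in PTC against *BRAF*(+) AT the count of 11 became 4 without *BRAF*(+) AT mouse M_779. In *BRAF*(+) against *BRAF*(-) BHL the count of 6 became 3 without *BRAF*(-) BHL mouse M_946 and 11 without *BRAF*(+) BHL mouse M_958. In the non-malignant comparison, 3 genes passed without *BRAF*(+) AT mouse M_779 and 2 without *BRAF*(-) AT mouse M_957. In BL against *BRAF*(-) AT the count of 5 became 2 without *BRAF*(-) AT mouse M_940, 3 without BL mouse M_360, M_414, M_530 or M_772 or *BRAF*(-) AT mouse M_524 or M_956, 8 without BL mouse M_649 and 11 without BL mouse M_416. With females only, 7 genes passed in PTC against *BRAF*(-) AT, 5 higher and 2 lower. The medians of the arrays set to be equal gave 5 higher and 12 lower in that comparison, and 2 higher and 8 lower in BL against *BRAF*(-) AT.

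Among the fibrillar collagens, *Col5a2* changed most. It encodes a chain of type V collagen, which co-assembles with type I and regulates fibril diameter. Its signal was 6.69, 7.58 and 8.04 (lowest, median and highest) in PTC and 6.35, 6.97 and 7.74 in BL, against 6.02, 6.09, 6.15, 6.45 and 6.52 in the *BRAF*(-) AT mice. All 10 PTCs lay above every *BRAF*(-) AT mouse, and 7 of the 10 BLs did so. *BRAF*(+) BHL had 6.49, 7.46, 7.54 and 7.90, against 6.09, 6.20, 6.29 and 6.53 in *BRAF*(-) BHL. Here 3 of the 4 *BRAF*(+) mice were above all *BRAF*(-) mice and mouse M_958 was not. *BRAF*(+) AT spread from 5.89 to 7.11 and overlapped *BRAF*(-) AT. The log2 difference was 1.09 ± 0.21 in PTC against *BRAF*(-) AT (SE; adjusted p = 0.000513), 0.93 ± 0.21 in PTC against *BRAF*(+) AT (adjusted p = 0.00485), 0.66 ± 0.21 in BL against *BRAF*(-) AT (adjusted p = 0.0373) and 1.07 ± 0.27 in *BRAF*(+) against *BRAF*(-) BHL (adjusted p = 0.0113). The non-malignant difference of 0.57 ± 0.18 did not pass (adjusted p = 0.0957), and the BL call was lost in 9 of 38 fits that left out 1 mouse. The BL call was also lost with females only (adjusted p = 0.116) and with muscle and adipocyte covariates (adjusted p = 0.131).

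*Col1a1* and *Col1a2*, the chains of type I collagen, had differences of the same sign that did not pass in the main fit. *Col1a1* was 8.22, 9.34 and 10.44 in PTC, against 8.12, 8.23, 8.29, 8.48 and 8.82 in *BRAF*(-) AT, with a difference of 0.74 ± 0.28 (adjusted p = 0.0566). This was the collagen gene nearest to the threshold in that comparison among those that did not pass. It passed in 4 of 10 alternative settings, among them the filters for flat and dim probe sets (adjusted p = 0.0367 and 0.0387). It also passed in 5 of 38 fits that left out 1 mouse. The highest adjusted p was 0.14 over the alternatives, and 0.163 in the fit without *BRAF*(-) AT mouse M_956. *BRAF*(+) BHL had 7.79, 9.51, 9.87 and 10.27 for *Col1a1*, against 8.34, 8.45, 8.46 and 9.11 in *BRAF*(-) BHL. The 3 higher *BRAF*(+) mice were above every *BRAF*(-) mouse, and mouse M_958 was below all of them. The difference of 0.77 ± 0.35 did not pass (adjusted p = 0.214). It was 1.15 without this mouse (adjusted p = 0.0462) and 0.53 without *BRAF*(+) mouse M_943 (adjusted p = 0.465). *Col1a2* differed by 0.54 ± 0.21 in PTC against *BRAF*(-) AT (adjusted p = 0.0718), where PTC had 8.49, 9.27 and 10.14, against 8.26, 8.30, 8.75, 8.84 and 8.91. *Col3a1*, the type III chain of vessels and pliable stroma, was 8.05, 9.17 and 9.68 in PTC, against 8.11, 8.22, 8.72, 8.76 and 8.87 in *BRAF*(-) AT, and the groups overlapped (0.37 ± 0.22, adjusted p = 0.253). In *BRAF*(+) BHL, *Col3a1* was 7.43, 8.77, 9.15 and 9.62, against 8.18, 8.38, 8.38 and 9.09 in *BRAF*(-) BHL, and its difference of 0.24 turned to -0.0075 without mouse M_943.

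**Figure D2:**
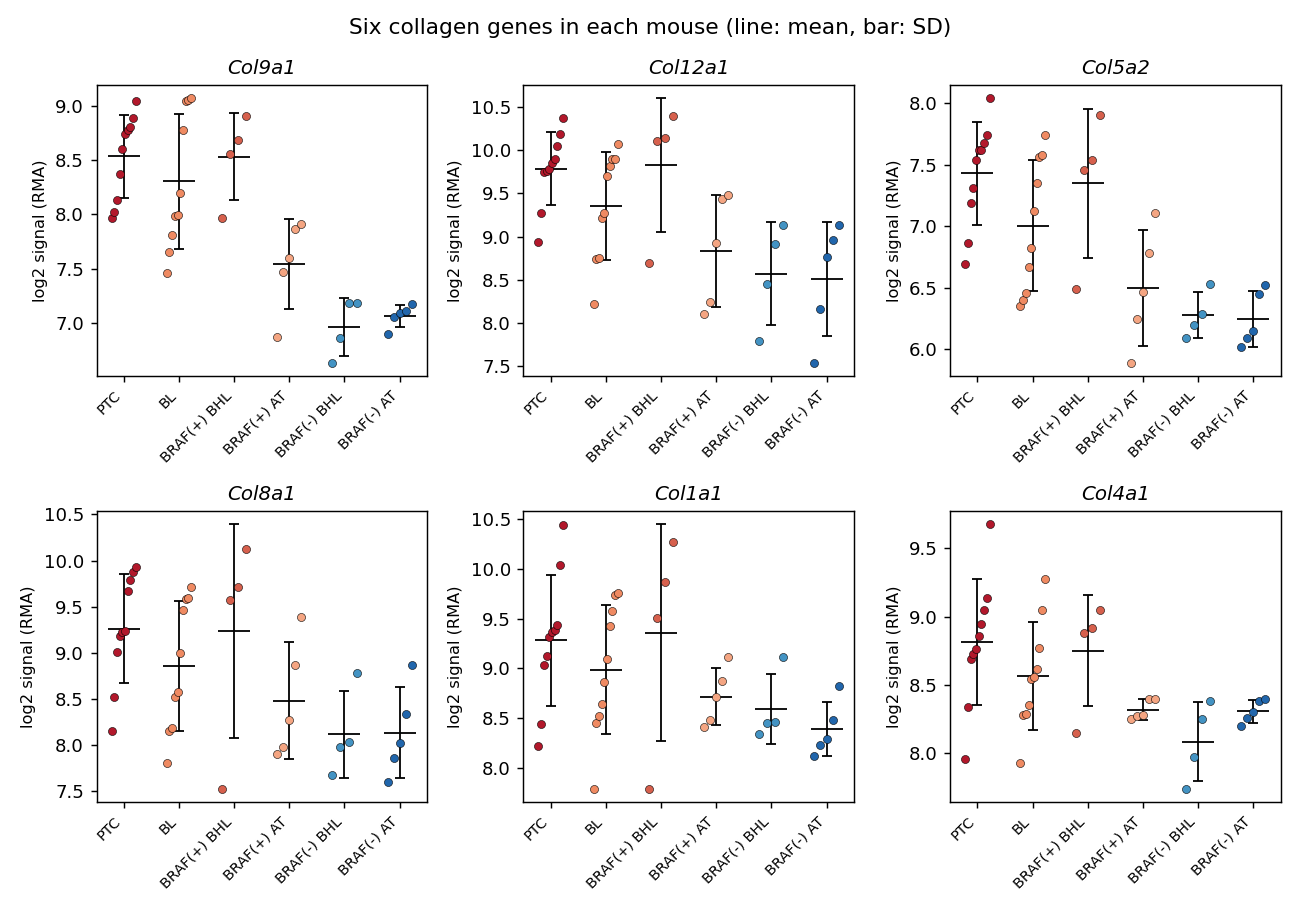
Log2 signal (vertical axis, RMA) of 6 collagen genes in each mouse, by group (horizontal axis), with a horizontal line for the mean and a bar for the SD. PTC, BL and *BRAF*(+) BHL lie above the *BRAF*(-) groups for *Col9a1*, and a single *BRAF*(+) BHL mouse (M_958) lies far below the other 3 for *Col12a1* (8.69), *Col8a1* (7.53) and *Col1a1* (7.79).

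None of the remaining fibrillar genes passed as higher in any comparison. *Col2a1*, the main collagen of cartilage, was 6.50, 6.70 and 6.83 in PTC, against 6.75, 6.98, 7.11, 7.16 and 7.19 in *BRAF*(-) AT. It was lower in 7 of 10 PTCs than in every *BRAF*(-) AT mouse (-0.35 ± 0.09, adjusted p = 0.00848), and likewise against *BRAF*(+) AT (-0.36 ± 0.09, adjusted p = 0.0103). *Col24a1* fell by 0.27 in PTC (adjusted p = 0.0149) and by 0.29 in BL (adjusted p = 0.016), both against *BRAF*(-) AT, and by 0.24 in PTC against *BRAF*(+) AT (adjusted p = 0.0334). *Col27a1* fell by 0.36 in PTC against *BRAF*(-) AT (adjusted p = 0.0151). Types XXIV and XXVII are fibrillar collagens known from bone and cartilage. *Col5a1*, *Col5a3*, *Col11a1* and *Col11a2* passed in no comparison. *Col11a1*, a chain of the minor fibrillar type XI, came nearest, with 6.08 to 6.64 in *BRAF*(+) BHL, against 5.69 to 6.07 in *BRAF*(-) BHL, without overlap (0.40 ± 0.13, adjusted p = 0.0565). *Col5a1*, which encodes the chain that pairs with that of *Col5a2*, differed by 0.06 ± 0.11 in PTC against *BRAF*(-) AT and by 0.33 ± 0.13 in *BRAF*(+) against *BRAF*(-) BHL (adjusted p = 0.736 and 0.145), and *Col5a3* by 0.32 ± 0.15 in BHL (adjusted p = 0.232). With females only, the lower calls of *Col2a1*, *Col24a1* and *Col27a1* did not pass against *BRAF*(-) AT (adjusted p = 0.0788, 0.143 and 0.0657).

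Among the 9 basement membrane genes, only type IV chains passed, all of them higher. *Col4a6*, a minor type IV chain of smooth muscle and some epithelial basement membranes, was 7.57, 7.82 and 8.04 in PTC, against 7.11, 7.14, 7.35, 7.38 and 7.61 in *BRAF*(-) AT, and 9 of 10 PTCs were above all *BRAF*(-) AT mice. *BRAF*(+) BHL had 7.41, 7.74, 7.89 and 7.94, against 7.04, 7.19, 7.26 and 7.40 in *BRAF*(-) BHL, with no overlap. The differences were 0.47 ± 0.11 in PTC against *BRAF*(-) AT (adjusted p = 0.0024), 0.33 ± 0.11 in PTC against *BRAF*(+) AT (adjusted p = 0.0304) and 0.52 ± 0.14 in *BRAF*(+) against *BRAF*(-) BHL (adjusted p = 0.0142). With females only, *Col4a6* did not pass in PTC against *BRAF*(+) AT (adjusted p = 0.0659). *Col4a1* and *Col4a2* encode the chains of the common type IV network. *Col4a2* was 8.24, 9.02 and 9.71 in PTC, against 8.28, 8.42, 8.47, 8.57 and 8.65 in *BRAF*(-) AT (0.46 ± 0.16, adjusted p = 0.0375), and 9 of 10 PTCs were higher than every *BRAF*(-) AT mouse while mouse M_700 was lower than all of them. Against *BRAF*(+) AT, where the mice lay closely together at 8.44 to 8.59, *Col4a2* was higher in PTC by 0.50 ± 0.16 (adjusted p = 0.0286). *Col4a1* was 7.96, 8.81 and 9.68 in PTC, against 8.20, 8.26, 8.30, 8.38 and 8.40 in *BRAF*(-) AT, and just missed the threshold (0.45 ± 0.18, adjusted p = 0.0734).

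In BHL, *Col4a1* was 8.15, 8.88, 8.92 and 9.05 in *BRAF*(+) mice, against 7.74, 7.97, 8.25 and 8.38 in *BRAF*(-) mice. A similar spread was found for *Col4a2*, at 8.39, 9.03, 9.12 and 9.20 in *BRAF*(+) and 7.93, 8.24, 8.60 and 8.67 in *BRAF*(-) BHL. Both differences, 0.67 ± 0.23 and 0.57 ± 0.20, did not pass (adjusted p = 0.0714 and 0.0882). They depended on single mice. Without *BRAF*(+) mouse M_958 they passed (0.80 and 0.70, adjusted p = 0.0427 and 0.0476). Without *BRAF*(-) mouse M_946 they fell to 0.52 and 0.40 (adjusted p = 0.217 and 0.293). The chains of *Col4a3*, *Col4a4* and *Col4a5*, best known from the kidney glomerulus, passed in no comparison, nor did *Col7a1* (anchoring fibrils), *Col15a1* or *Col18a1*. *Col18a1*, whose product is the source of endostatin, was 7.75, 8.39 and 8.82 in PTC, against 8.03, 8.08, 8.09, 8.29 and 8.52 in *BRAF*(-) AT, and its difference of 0.10 ± 0.15 was smaller than the spread between mice (adjusted p = 0.689). The *Col4a2* call in PTC against *BRAF*(-) AT was lost in 8 of 38 fits that left out 1 mouse. It was also lost with array medians set to be equal (adjusted p = 0.0543) and with muscle and adipocyte covariates (adjusted p = 0.102).

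*Col9a1* encodes a chain of type IX collagen, which decorates type II fibrils in cartilage. It was 7.97, 8.67 and 9.04 in PTC and 7.46, 8.09 and 9.07 in BL, against 6.90, 7.05, 7.09, 7.11 and 7.17 in *BRAF*(-) AT. Every PTC and every BL was higher than every *BRAF*(-) AT mouse. *BRAF*(+) BHL had 7.97, 8.56, 8.68 and 8.91, against 6.63, 6.86, 7.18 and 7.18 in *BRAF*(-) BHL, again with no overlap. The *BRAF*(+) AT mice were at 6.87, 7.47, 7.60, 7.86 and 7.91, so that 4 of them lay above all *BRAF*(-) AT mice and below all PTCs, and mouse M_523 lay below all *BRAF*(-) AT mice.

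The log2 difference of *Col9a1* was 1.38 ± 0.21 in PTC against *BRAF*(-) AT (adjusted p = 2.71e-05), 0.99 ± 0.21 in PTC against *BRAF*(+) AT (adjusted p = 0.00322), 1.15 ± 0.21 in BL against *BRAF*(-) AT (adjusted p = 0.000613) and 1.57 ± 0.27 in *BRAF*(+) against *BRAF*(-) BHL (adjusted p = 0.000411). It was the only collagen gene that passed over the 18 non-malignant mice, with 0.93 ± 0.18 (adjusted p = 0.00814) and 8 of 9 *BRAF*(+) mice above all *BRAF*(-) mice. The AT difference of 0.39 ± 0.24 did not pass (adjusted p = 0.659). The difference between the *BRAF* effects in BHL and AT, 1.18 ± 0.36, was the largest of its kind among the members and did not pass either (adjusted p = 0.305). All of the *Col9a1* calls held in every fit that left out 1 mouse. With the muscle and adipocyte marker means of each mouse as covariates the non-malignant difference was 0.40 (adjusted p = 0.696), in a fit that called 14 probe sets in all, against 1458 in the fit without them.

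The other chains of type IX collagen did not follow. *Col9a2* and *Col9a3* differed by -0.18 ± 0.10 and -0.20 ± 0.11 in PTC against *BRAF*(-) AT (adjusted p = 0.198 and 0.213) and by 0.17 ± 0.13 and 0.24 ± 0.15 in *BRAF*(+) against *BRAF*(-) BHL (adjusted p = 0.499 and 0.377). The mean of the list of 8 cartilage markers was 4.53 to 5.94 in PTC, against 4.70 to 4.90 in *BRAF*(-) AT. *Acan*, the main cartilage proteoglycan, averaged 4.66 ± 0.66 in PTC and 4.71 ± 0.10 in *BRAF*(-) AT (SD, n = 10 and 5). In BL mouse M_649, where *Acan* was highest among BLs (7.14, against 4.17 to 4.64 in the others), *Col9a1* was 7.65, against a median of 8.20 in the other BLs. In PTC mouse M_1002, with *Acan* at 6.52 (4.34 to 4.73 in the others), *Col9a1* was 8.74, against a median of 8.60 in the other PTCs. Of the 8 genes, *Comp*, a matrix protein of cartilage and tendon, was higher in *BRAF*(+) BHL (7.57 ± 1.54) than in *BRAF*(-) BHL (5.14 ± 0.06; SD, n = 4 each; adjusted p = 0.0341), *Cnmd*, chondromodulin, was lower in PTC than in *BRAF*(-) AT (-0.37 ± 0.12, adjusted p = 0.0259), and none passed in the non-malignant comparison. The list mean hides the wide spread of *Comp*. It was 5.21 to 8.59 (median 7.24) in the PTCs other than M_1002, where it was 7.90. In the BLs other than M_649, *Comp* was 4.97 to 8.88 (median 6.55), and in that mouse 6.57. *Comp* did not pass in PTC or BL against *BRAF*(-) AT. *Col9a1* and the cartilage markers were not tested against each other.

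*Col12a1* and *Col8a1* completed the genes with large rises. *Col12a1*, a FACIT collagen of tendon and dense connective tissue, was 8.94, 9.81 and 10.37 in PTC, against 7.54, 8.16, 8.76, 8.96 and 9.13 in *BRAF*(-) AT, and 9 of 10 PTCs were above all *BRAF*(-) AT mice. *BRAF*(+) BHL had 8.69, 10.10, 10.14 and 10.39, against 7.79, 8.45, 8.91 and 9.14 in *BRAF*(-) BHL. The differences were 1.11 ± 0.25 in PTC against *BRAF*(-) AT (adjusted p = 0.00194), 0.95 ± 0.25 in PTC against *BRAF*(+) AT (adjusted p = 0.0111) and 1.26 ± 0.32 in *BRAF*(+) against *BRAF*(-) BHL (adjusted p = 0.0113), whereas 0.69 ± 0.25 in BL did not pass (adjusted p = 0.0653). *Col8a1*, a short chain collagen of vessel walls and the Descemet membrane, was 8.15, 9.24 and 9.93 in PTC, against 7.60, 7.86, 8.02, 8.34 and 8.87 in *BRAF*(-) AT (0.95 ± 0.30, adjusted p = 0.023). In BHL the *Col8a1* difference was larger, 1.12 ± 0.38, but did not pass (adjusted p = 0.0696), with *BRAF*(+) mouse M_958 at 7.53 and the other 3 at 9.57 or above. *Col8a2*, its partner chain, passed only there (0.48 ± 0.13, adjusted p = 0.0162), as did *Col16a1*, a FACIT collagen (0.30 ± 0.09, adjusted p = 0.0439), whose call was lost in 6 of 38 fits that left out 1 mouse. With females only, *Col8a1* did not pass in PTC against *BRAF*(-) AT (adjusted p = 0.0703). Nor did *Col12a1* in PTC against *BRAF*(+) AT (adjusted p = 0.0513) or *Col16a1* in BHL (adjusted p = 0.197). *Col8a1* in PTC also failed with muscle and adipocyte covariates (adjusted p = 0.0794), and *Col12a1* in BHL without sex in the fit (adjusted p = 0.0589).

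The type VI genes split. *Col6a1*, *Col6a2* and *Col6a3*, the chains of the common type VI filament, passed in no comparison. *Col6a1* was 8.25, 8.76 and 9.27 in PTC, against 8.12, 8.18, 8.60, 8.65 and 8.68 in *BRAF*(-) AT (0.25 ± 0.12, adjusted p = 0.128), and 8.23, 8.79, 9.08 and 9.14 in *BRAF*(+) BHL, against 8.01, 8.29, 8.47 and 8.74 in *BRAF*(-) BHL (0.44 ± 0.15, adjusted p = 0.0757). *Col6a5* was 5.61, 5.84 and 6.06 in PTC, against 6.03, 6.08, 6.31, 6.46 and 6.68 in *BRAF*(-) AT, and 9 of 10 PTCs were below all of these mice (-0.47 ± 0.14, adjusted p = 0.0139). It was also lower than in *BRAF*(+) AT, without overlap (-0.45 ± 0.13, adjusted p = 0.0226). *Col6a4* fell by 0.35 in PTC against *BRAF*(-) AT (adjusted p = 0.0388), a call that was lost in 9 of 38 fits that left out 1 mouse and with females only (adjusted p = 0.102), and *Col6a6* did not pass.

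Of the transmembrane collagens *Col13a1* and *Col23a1* were lower in PTC, as was the unclassed *Col26a1*. *Col13a1*, a transmembrane collagen of cell junctions, was 6.11, 6.36 and 6.67 in PTC, against 6.69, 6.76, 6.87, 7.11 and 7.23 in *BRAF*(-) AT. The groups did not overlap (-0.49 ± 0.12, adjusted p = 0.00374), and *Col13a1* was also lower than in *BRAF*(+) AT (-0.41 ± 0.12, adjusted p = 0.018). *Col26a1* was 6.32, 6.54 and 6.87 in PTC, against 6.91, 6.99, 7.01, 7.03 and 7.14 in *BRAF*(-) AT, again without overlap (-0.42 ± 0.11, adjusted p = 0.00545). It was -0.42 ± 0.10 in PTC against *BRAF*(+) AT (adjusted p = 0.00947) and -0.32 ± 0.11 in BL against *BRAF*(-) AT (adjusted p = 0.0457), and this BL call was lost in 14 of 38 fits that left out 1 mouse. *Col23a1*, another transmembrane collagen, fell by 0.36 in PTC (adjusted p = 0.00729) and by 0.38 in BL (adjusted p = 0.00862), both against *BRAF*(-) AT. *Col19a1* passed only in PTC against *BRAF*(+) AT (-0.23 ± 0.07, adjusted p = 0.0246), and *Col22a1* only in PTC against *BRAF*(-) AT (-0.24 ± 0.09, adjusted p = 0.0489), a call that was lost in 23 of 38 fits that left out 1 mouse. With females only, *Col26a1* and *Col6a5* still passed in PTC against *BRAF*(-) AT, whereas *Col13a1*, *Col23a1* and *Col22a1* did not (adjusted p = 0.0729, 0.0979 and 0.217). Neither did *Col23a1* and *Col26a1* in BL against *BRAF*(-) AT (adjusted p = 0.153 and 0.097), nor *Col13a1*, *Col19a1*, *Col26a1* and *Col6a5* in PTC against *BRAF*(+) AT (adjusted p = 0.0788, 0.137, 0.0889 and 0.0588). *Col10a1*, *Col14a1*, *Col17a1*, *Col20a1*, *Col25a1* and *Col28a1* passed in no comparison.

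**Figure D3:**
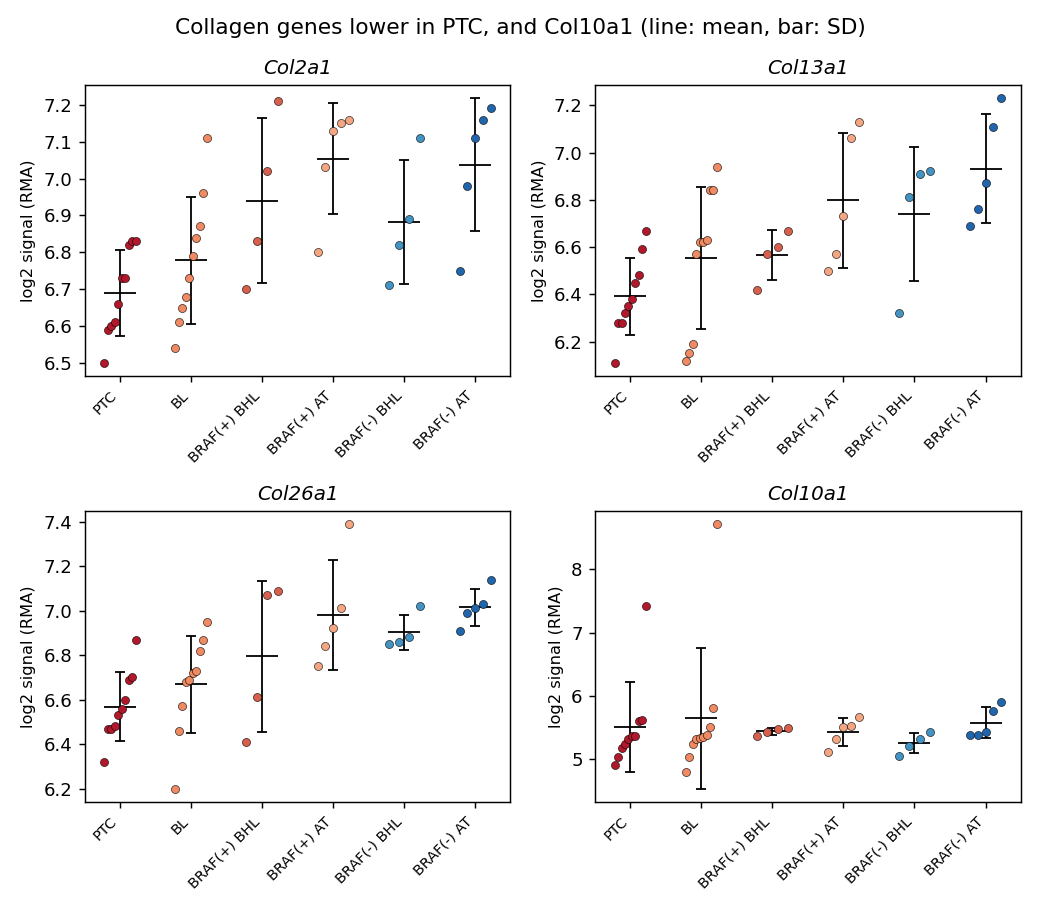
Log2 signal (vertical axis, RMA) of 4 collagen genes in each mouse, by group (horizontal axis), with a horizontal line for the mean and a bar for the SD. The PTCs lie below all *BRAF*(-) AT mice for *Col13a1* and *Col26a1* and below most of them for *Col2a1*, and *Col10a1* is high in 1 PTC (7.42) and 1 BL (8.72).

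The calls in PTC against *BRAF*(-) AT were also counted on either side of the median signal of all probe sets, a technical split that does not order genes by expression. Of the 33 members above it, 6 were higher and 5 lower, and of all probe sets there 15.8% were higher and 11.1% lower. Of the 11 members at or below it, 0 were higher and 4 lower, and of all probe sets there 3.79% were higher and 6.96% lower. The median difference over all probe sets was 0.05 above and -0.06 at or below the median signal, and over the members it was 0.04 and -0.16. In narrower ranges of signal, 0 of 18 members from 5.44 to 6.80 were higher and 7 lower, against 10.1% and 13% of all probe sets there. From 6.80 to 8.22, 3 of 12 members were higher and 2 lower (16% and 10.5% of all). Above that, 3 of 12 members were higher and 0 lower (17.6% and 10.3% of all). Whether signal level has a part in the lower calls was not tested.

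**Figure D4:**
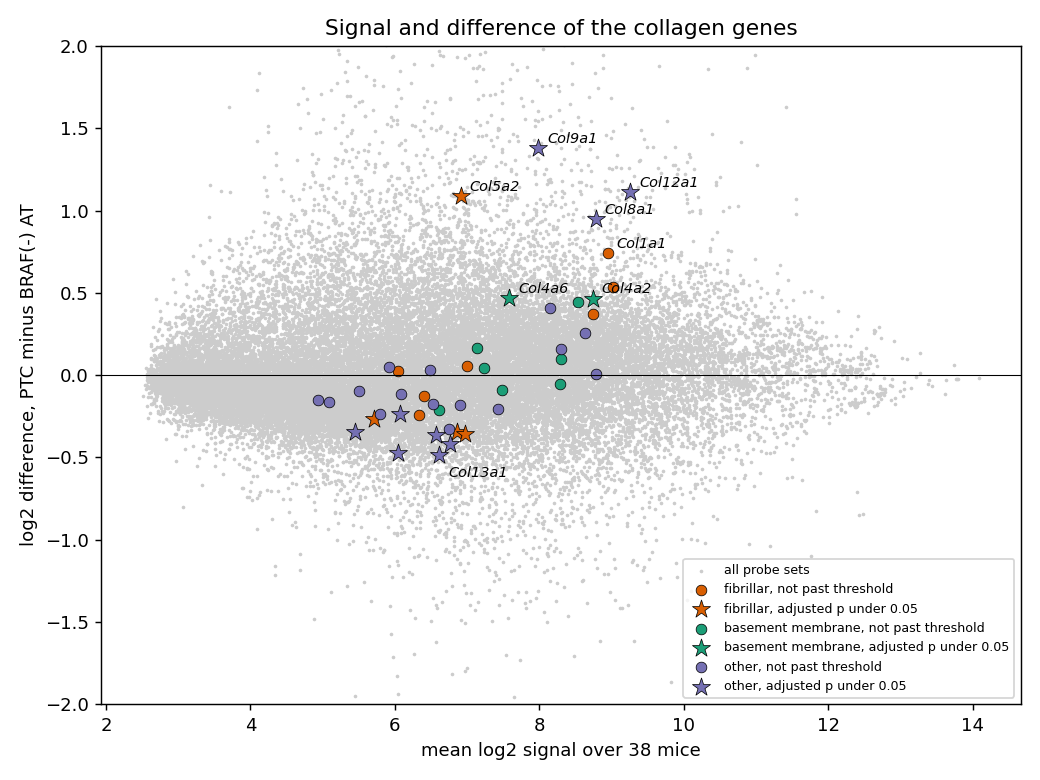
Log2 difference of PTC minus *BRAF*(-) AT (vertical axis) against the mean log2 signal over 38 mice (horizontal axis), with all probe sets in grey, collagen genes in colour by class and stars for an adjusted p under 0.05. The 6 higher members reach 1.38 and the 9 lower members reach -0.49, and 96 probe sets beyond 2 units on either side are off the axis.

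Single mice stood apart for *Col10a1* and *Col17a1*. *Col10a1*, the collagen of hypertrophic cartilage, was 8.72 in BL mouse M_649 and 7.42 in PTC mouse M_1002, against 5.91 or less in the other 36 mice. In both mice the cartilage marker mean was above the rest of its group (6.01 against 4.41 to 5.12 in BL, and 5.94 against 4.53 to 5.07 in PTC). That mean includes *Acan*, at 7.14 and 6.52, and *Ucma*, a cartilage gene chosen after its values were seen, at 8.52 and 7.98. The mean and these genes are therefore not independent of each other. The airway epithelium marker mean was also the highest of its group in both mice (9.63 and 8.49), and in PTC mouse M_1002 so was the skeletal muscle marker mean (8.92). *Col17a1*, a transmembrane collagen of hemidesmosomes in stratified epithelia, was 7.80 in BL mouse M_530, against 6.20 or less elsewhere. *Krt4* and *Krt13*, keratins of stratified epithelium that were likewise chosen after their values were seen, were 12.8 and 12.5 in this mouse (5.42 and 5.21 or less in the other BLs), and its skeletal muscle marker mean of 10.7 was the highest among BLs. PTC mouse M_1002 also had *Krt4* at 8.7 and *Krt13* at 8.39 (4.74 and 5.42 or less in the other PTCs), with *Col17a1* at 6.07 (6.03 or less). The part of these markers' cell types in the collagen signals was not tested.

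A *BRAF*(+) BHL mouse and several others were low for many members at once. *BRAF*(+) BHL mouse M_958, a male of 4 months, had the lowest signal of its group for 18 of the 33 brighter members, and its means of the fibroblast markers (8.42, against 9.01 to 9.55) and of the tendon markers (5.87, against 7.90 to 8.16) were also the lowest. *BRAF*(-) BHL mouse M_946 was lowest for 20 of the 33 and mouse M_764 highest for 19. BL mouse M_80 was lowest for 16 and PTC mouse M_700 for 11, and PTC mouse M_415 was highest for 15. The part of sex, age and cell content in these mice was not tested.

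Partner chains were compared across the 20 PTC and BL mice in 11 pairs, each tested by 100000 permutations (smallest p possible 1e-05) with Benjamini-Hochberg adjustment over the 11. *Col4a1* and *Col4a2* had r = 0.988 and rho = 0.963 (permutation p = 1e-05 for both, adjusted p = 3.67e-05), and r was 0.978 without the 2 mice farthest from the median, 0.990 within PTC and 0.983 within BL. *Col1a1* and *Col1a2* had r = 0.978 and rho = 0.967 (permutation p = 1e-05 for both, adjusted p = 3.67e-05), with r = 0.965 without 2 mice, 0.977 within PTC and 0.981 within BL. *Col6a1* and *Col6a3* had r = 0.915 and rho = 0.913 (permutation p = 1e-05, adjusted p = 3.67e-05), with r = 0.873 without 2 mice, 0.912 within PTC and 0.927 within BL. These 3 pairs moved almost together from mouse to mouse. Chains that are not partners were not compared, so these values do not set partner chains apart from other collagen genes.

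Other pairs had a lower r, given below also without 2 mice, within PTC and within BL, in this order. *Col5a1* and *Col5a2* had r = 0.775 and rho = 0.690 (permutation p = 5e-05 and 0.001, adjusted p = 0.000138 and 0.0022), with r = 0.709 without 2 mice, 0.784 within PTC and 0.755 within BL. *Col6a1* and *Col6a2* had r = 0.749 and rho = 0.723 (permutation p = 7e-05 and 0.00049, adjusted p = 0.000154 and 0.00135), with 0.648, 0.865 and 0.694. *Col4a3* and *Col4a4* had r = 0.664 and rho = 0.611 (permutation p = 0.00143 and 0.00499, adjusted p = 0.00262 and 0.00915), with 0.504, 0.773 and 0.640. The head-to-head pair *Col4a5* and *Col4a6* had r = 0.619 and rho = 0.538 (permutation p = 0.00291 and 0.016, adjusted p = 0.00457 and 0.0251), with 0.605, 0.338 and 0.659, with the lowest r within PTC. *Col8a1* and *Col8a2* had r = 0.507 and rho = 0.521 (permutation p = 0.0233 and 0.0202, adjusted p = 0.0321 and 0.0277), with 0.492, 0.732 and 0.277.

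Type IX and type XI chains showed no relation past the threshold, with r given in the same order. *Col9a1* and *Col9a2* had r = -0.175 and rho = -0.287 (permutation p = 0.463 and 0.219, adjusted p = 0.509 and 0.24), with r = -0.123 without 2 mice, -0.269 within PTC and -0.170 within BL. *Col9a1* and *Col9a3* had r = 0.323 and rho = 0.352 (permutation p = 0.166 and 0.128, adjusted p = 0.203 and 0.157), with 0.741, 0.862 and 0.152. *Col11a1* and *Col11a2* had r = -0.057 and rho = -0.142 (permutation p = 0.81 and 0.549, adjusted p = 0.81 and 0.549), with -0.280, -0.297 and 0.195. Within the 16 female mice r was 0.982 for *Col4a1* and *Col4a2* and -0.057 for *Col9a1* and *Col9a2*.

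**Figure D5:**
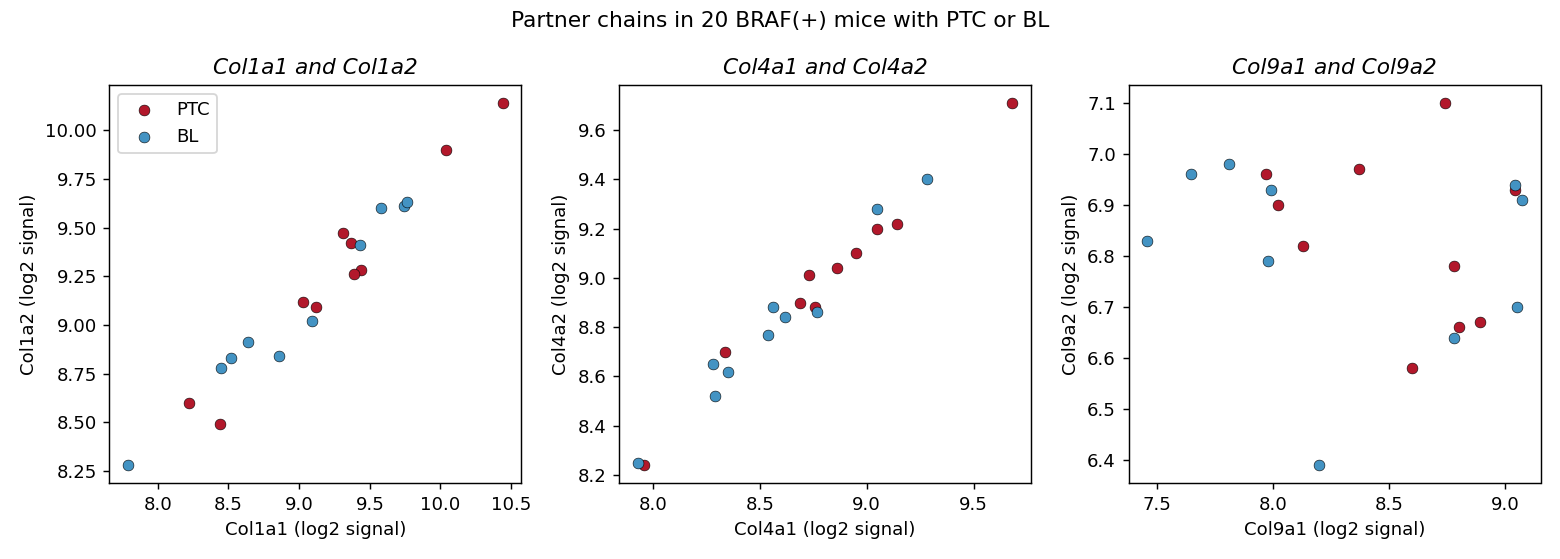
Log2 signals of 3 pairs of partner chains (one chain on each axis) in the 10 PTC mice (red) and 10 BL mice (blue), 1 point per mouse. The points of *Col1a1* and *Col1a2* (r = 0.978) and of *Col4a1* and *Col4a2* (r = 0.988) lie along a line, and those of *Col9a1* and *Col9a2* (r = -0.175) do not.

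Genes that modify, cleave, bind and partner collagens were read in 5 lists, with the background shares given above. In the collagen modification and folding list, 2 of 23 measured genes were higher in *BRAF*(+) non-malignant thyroids and 0 were lower (median 0.03, against 0.02 over all probe sets). They were *P4ha2*, a prolyl hydroxylase subunit (0.41 ± 0.10, adjusted p = 0.0308), and *Plod3*, a lysyl hydroxylase (0.34 ± 0.06, adjusted p = 0.00376). In PTC against *BRAF*(-) AT, 5 were higher and 1 lower, among them *P4ha2* (0.55, adjusted p = 0.00662) and *Plod3* (0.42, adjusted p = 0.0021), and in *BRAF*(+) against *BRAF*(-) BHL 0 passed. *Plod3* was 8.95 in *BRAF*(+) and 8.60 in *BRAF*(-) non-malignant thyroids on average, and 8 of 9 *BRAF*(+) mice were above all *BRAF*(-) mice. Of 11 genes of procollagen cleavage and crosslinking, none passed in the non-malignant comparison, 0 were higher and 2 lower in PTC against *BRAF*(-) AT, and 1 was higher in *BRAF*(+) BHL. Of 8 collagen receptor genes, none passed in the non-malignant comparison, 2 were higher in PTC against *BRAF*(-) AT and 1 was higher in *BRAF*(+) BHL.

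Proteins that sit on fibrils were read next. Of 14 fibril-associated proteoglycan and glycoprotein genes, 4 were higher in *BRAF*(+) non-malignant thyroids, 6 in PTC against *BRAF*(-) AT and 6 in *BRAF*(+) against *BRAF*(-) BHL, with 0 lower in each and medians of 0.23, 0.45 and 0.43. *Fmod*, a small proteoglycan that controls fibril growth, averaged 8.61 ± 1.48 in PTC (SD, n = 10) and 5.56 ± 0.37 in *BRAF*(-) AT (n = 5), and 9.22 ± 2.33 in *BRAF*(+) BHL and 5.64 ± 0.32 in *BRAF*(-) BHL (n = 4 each). Its differences were 2.64 ± 0.63 (adjusted p = 0.00347) and 3.58 ± 0.80 (adjusted p = 0.00471), and 1.91 ± 0.52 over the non-malignant mice (adjusted p = 0.0487). *Fn1*, fibronectin, rose by 0.90 ± 0.19 (adjusted p = 0.0134), *Prelp* by 0.96 ± 0.23 (adjusted p = 0.0222) and *Bgn*, biglycan, by 0.42 ± 0.10 (adjusted p = 0.0265) in non-malignant thyroids. Of 15 basement membrane partners, *Agrn*, agrin, was higher (0.50 ± 0.12, adjusted p = 0.0272) and *Lamb1*, a laminin chain, was lower (-0.59 ± 0.13, adjusted p = 0.0158) in *BRAF*(+) non-malignant thyroids. Both kept these directions in PTC against *BRAF*(-) AT, at 0.65 for *Agrn* (adjusted p = 0.0019) and -0.74 for *Lamb1* (adjusted p = 0.00498), where 2 of the 15 were higher and 4 lower.

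Markers of other cells were read beside the collagens. None of 6 fibroblast markers passed in the non-malignant comparison or in the PTC and BHL comparisons above, and their mean was 9.09 ± 0.29 in PTC, 9.03 ± 0.22 in BL and ranged from 8.42 to 9.55 in *BRAF*(+) BHL, against 9.18 ± 0.35 in *BRAF*(-) BHL and 9.11 ± 0.27 in *BRAF*(-) AT (SD). The tendon list of 5 genes, which also holds *Fmod*, had 1 gene higher in the non-malignant comparison and 2 (*Fmod* and *Thbs4*) in each of the PTC and BHL comparisons, and averaged 7.27 ± 0.78 in PTC and 7.47 ± 1.07 in *BRAF*(+) BHL, against 6.27 ± 0.51 in *BRAF*(-) BHL and 6.17 ± 0.33 in *BRAF*(-) AT. White adipocyte marker means were 6.03 to 9.67 in PTC and a mean of 8.21 ± 0.38 in *BRAF*(+) BHL, against 9.43 ± 0.51 in *BRAF*(-) BHL and 9.25 ± 0.25 in *BRAF*(-) AT, and 3 of 5 passed as lower in the non-malignant comparison and in PTC against *BRAF*(-) AT, and 0 in BHL. The means of the endothelial markers were 9.33 ± 0.25 in PTC, against 9.61 ± 0.25 in *BRAF*(-) AT, where 1 of 6 passed as lower (*Emcn*), and those of the mural cell markers were 8.67 ± 0.22 in PTC and 8.60 ± 0.20 in *BRAF*(-) AT, where 0 of 5 passed. The mean of 8 skeletal muscle markers, none of which passed in these comparisons, ranged from 5.23 to 8.92 in PTC and from 5.26 to 10.1 in *BRAF*(-) AT. It ranged from 5.36 to 5.65 in *BRAF*(+) BHL, 5.27 to 5.46 in *BRAF*(+) AT and 5.41 to 9.76 in *BRAF*(-) BHL. The median difference over these markers was -1.22 in the non-malignant comparison and -1.07 in BHL. Of 4 airway epithelium markers, *Scgb1a1* was lower in the non-malignant, PTC and BHL comparisons alike. Of 5 thyroid follicular cell markers found, 2 were lower in PTC against *BRAF*(-) AT (*Tshr* and *Pax8*) and none passed in the non-malignant comparison. The part of cell content in the collagen results was not tested.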

How the data were processed

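Log2 values of 38 mouse thyroid arrays (Mouse Gene 1.0 ST) were used as deposited by the authors, who made them by RMA, per the labels (no version given); the labels name a 3' amplification kit. Probe sets were named from the platform annotation: 21789 of 35556 had 1 symbol, 1621 several and 12146 were not listed. For *Col6a5* and *Col6a6*, with more than 1 probe set, the one with the highest mean was kept. limma 3.58.1 (R 4.3.3) was fitted over all probe sets, with *BRAF*, lesion and sex in 18 non-malignant mice and with 6 groups and sex in 38 mice, followed by Benjamini-Hochberg adjustment at 0.05. The fit was tested on simulated data. Permutations used scipy 1.17.1 under Python 3.11.15. Precision is limited by the number of arrays. Labels gave groups, sex and age. No column of another series was used.

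The members and gene lists (modification, cleavage, receptors, fibril-associated proteins, basement membrane partners; fibroblast, cartilage, tendon, skeletal muscle, white adipocyte, endothelium, mural, airway and thyroid follicular markers) were chosen with earlier results of these data known. Named members were 10 fixed genes, up to 6 higher and 6 lower per comparison by size of difference, those nearest the threshold, and up to 5 per list; genes beyond these were named to account for every member. Alternatives were a filter for flat or dim probe sets, centring, variance models, age or no sex, females only, muscle and adipocyte covariates, mean probe sets and each mouse left out.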

Additional observations from a re-analysis of the deposited data

Results flagged for a closer look

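In the groups of 4 to 10 mice, 15 of 264 gene and group combinations had a highest or lowest mouse far from the rest, and chance alone flags about 1 in 20. All values are log2 signals, with the nearest other mouse beside each.

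In PTC, *Col10a1* was 7.42 in mouse M_1002 (next 5.61). In BL, *Col10a1* was 8.72 in mouse M_649 (next 5.80), *Col17a1* was 7.80 in mouse M_530 (next 5.91), *Col4a3* was low in the same mouse at 6.86 (next 7.09), and mouse M_80 was low for *Col5a3* at 5.78 (next 6.21) and *Col6a2* at 8.33 (next 8.67). In *BRAF*(+) BHL, *Col12a1* was 8.69 in mouse M_958 (next 10.1).

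In *BRAF*(+) AT, mouse M_523 was high for *Col9a3* at 7.80 (next 7.41), *Col11a1* at 6.19 (next 5.87) and *Col28a1* at 5.64 (next 5.02). Mouse M_779 was low for *Col4a5* at 6.66 (next 7.10), and mouse M_945 for *Col5a1* at 6.85 (next 7.06). In *BRAF*(-) BHL, *Col1a1* was 9.11 in mouse M_764 (next 8.46) and *Col18a1* was 7.93 in mouse M_946 (next 8.30). In *BRAF*(-) AT, *Col6a4* was 5.28 in mouse M_940 (next 5.71).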

How the results depend on the processing

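Counts of collagen genes called are given here where an alternative moved them by more than 1.5 times. With muscle and adipocyte covariates they were 0 in the non-malignant comparison, 3 in BL against *BRAF*(-) AT and 1 in *BRAF*(+) against *BRAF*(-) BHL. The gene left in BHL was *Col9a1*. The BHL calls of *Col5a2*, *Col12a1*, *Col4a6*, *Col8a2* and *Col16a1* did not pass then (adjusted p = 0.0746, 0.125, 0.163, 0.0648 and 0.305). With the filter for flat probe sets they were 5 in PTC against *BRAF*(-) AT, 3 in BL and 4 in PTC against *BRAF*(+) AT, all higher. This filter left 8 of the 44 collagen genes, and none of those called lower in the main fit. With females only, and so fewer mice, they were 7 in PTC against *BRAF*(-) AT, 1 in BL and 5 in PTC against *BRAF*(+) AT. In BL the count was 8 with the filter for dim probe sets, 10 with centred arrays and 8 with mean probe sets. Leaving out 1 mouse gave 1 to 3 in the non-malignant comparison, 9 to 18 in PTC against *BRAF*(-) AT, 2 to 11 in BL, 3 to 11 in BHL and 4 to 15 in PTC against *BRAF*(+) AT. Directions turned for some differences that had not passed. Leaving out 1 mouse gave -0.034 to 0.14 for *Col2a1* in BHL (0.06 with all mice; -0.0015 without *BRAF*(-) mouse M_946), -0.0075 to 0.56 for *Col3a1* in BHL (0.24) and -0.032 to 0.21 for *Col3a1* in the non-malignant comparison (0.07). With the covariates the non-malignant differences were -0.094 for *Col3a1* (0.07 without them), -0.13 for *Col4a1* (0.29) and -0.089 for *Col4a2* (0.25). Where no cause is named, the cause was not tested. No paired analysis was possible because the groups share no mouse numbers.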
